A study of Homo sapiens with 12 samples.

Results

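The MAGE-A genes are 10 members of a cancer-testis gene family on the X chromosome: *MAGEA1*, *MAGEA2*, *MAGEA3*, *MAGEA4*, *MAGEA6*, *MAGEA8*, *MAGEA9*, *MAGEA10*, *MAGEA11* and *MAGEA12*. They were found by symbol among the 23346 genes of the deposited table, and all 10 were listed. The family was chosen by its measured levels in these samples, so the differences between groups that follow describe the members and carry no test. Transcripts were measured by RNA-seq in 12 samples of the human pancreatic adenocarcinoma lines SW1990 and CFPAC-1. Each line was sorted by flow cytometry into cells positive and cells negative for GCTM-5, an antibody to a cell surface glycoprotein of the pancreatic and biliary duct lineage, with gates that kept the strongly positive and the negative cells. There were 3 samples in each of 4 groups, which were GCTM-5 positive and negative SW1990 cells and GCTM-5 positive and negative CFPAC-1 cells. The cells were grown as monolayers, carried no other treatment, and were sorted in triplicate from the same line, so the spread between samples is that between sorts. Each line comes from 1 tumour, and a difference between the lines therefore rests on 1 line of each kind.

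MAGE-A genes are active in male germ cells and placenta and are silent in other normal adult tissues, where their promoters are methylated. Many tumours switch some of them on again, and peptides from their proteins are then shown to T cells on the cell surface, which is why they were first found and why they have been tried as vaccine targets. The proteins share a MAGE homology domain that binds RING ubiquitin ligases. MAGE-A3 and MAGE-A6 bind TRIM28 and are known to direct p53 and the kinase AMPK to degradation.

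Values are RPKM, reads scaled to the length of the gene and the size of the library, and the reads behind them were recovered from the values. Library totals ranged from 9969697 reads in CFPAC-1 positive replicate 3 to 26159330 in CFPAC-1 positive replicate 1. The first of these samples also held less MAGE-A transcript than the other positive CFPAC-1 samples. The log2 differences in CFPAC-1 of *MAGEA3*, *MAGEA6*, *MAGEA12* and the neighbouring gene *CSAG1* are given with and without it. Most other values that include this sample are given with it alone. Of the 24 member counts above 0, 21 were even, as were 69.3% of counts of 2 to 20 reads over all genes. The reads are paired, and whether the mates were counted separately is not given in the sources used here, so that a count may stand for fewer molecules. All 7 duct epithelium markers had a mean of at least 1 RPKM in each of the 4 groups. Their sum was 1642 to 1985 RPKM in negative and 4404 to 4895 RPKM in positive SW1990 samples. In CFPAC-1 it was 5540 to 6299 and 6782 to 8287 RPKM. Of 7 stromal fibroblast markers, 3 reached that mean in negative SW1990 cells, 2 in positive SW1990 cells and 1 in each CFPAC-1 group. Of 4 endothelial markers, 1 did so in each SW1990 group and 0 in CFPAC-1. Of 5 leukocyte markers, 1 did so in positive SW1990 cells and 2 in each other group. Of the 6 germ cell markers, *DDX4*, *DAZL*, *PRM1*, *PRM2* and *TNP1* were at 0 in every sample, and *SYCP3* lay between 0.0444 and 0.776 RPKM.

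*MAGEA3*, *MAGEA6* and *MAGEA12* were the members present at more than trace levels, all in CFPAC-1 and all higher in its GCTM-5 positive cells. Of the 10 members, 3 were at 0 in every sample, 7 had a read in some sample, and 3 passed the filter of a mean of at least 0.1 RPKM over all samples, which 16236 genes passed. Summed over the 10 members, the level was 33.9, 30.4 and 6.38 RPKM in the positive CFPAC-1 samples and 1.11, 1.13 and 1.17 RPKM in the negative CFPAC-1 samples. In SW1990 the sum was at most 0.160 RPKM in the negative samples and 0 in all 3 positive samples. The plot of all members by sample shows this order, with the CFPAC-1 positive samples to the right and SW1990 at or near 0.

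**Figure D1:**
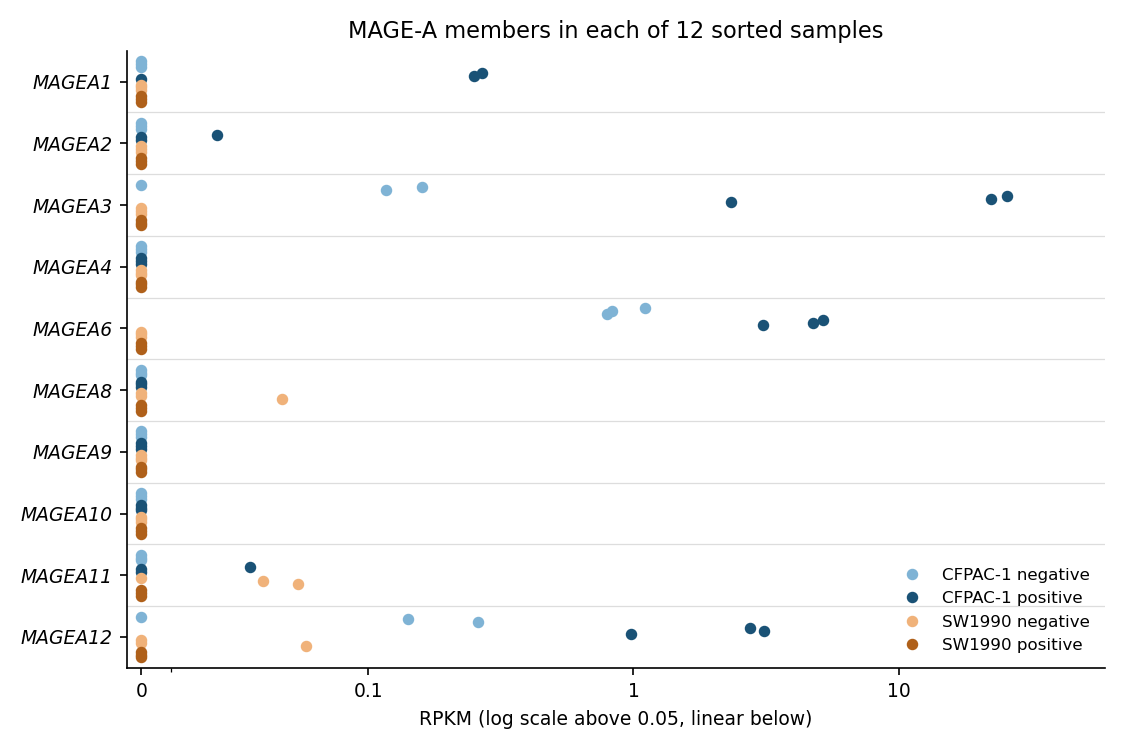
RPKM (horizontal axis, log scale above 0.05 and linear below) of the 10 MAGE-A members (rows) in each of the 12 samples, 1 point a sample, coloured by group. *MAGEA3*, *MAGEA6* and *MAGEA12* lie above 0.9 RPKM in all 3 positive CFPAC-1 samples, and no SW1990 sample passes 0.06 RPKM for any member.

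*MAGEA3* had the highest level of the family. It measured 25.6, 22.3 and 2.33 RPKM in CFPAC-1 positive replicates 1, 2 and 3, from 1156, 722 and 40 reads. In the negative CFPAC-1 samples it measured 0, 0.159 and 0.116 RPKM, from 0, 6 and 4 reads. The groups did not overlap, and the lowest positive sample was 14.6 times the highest negative sample. How many of all genes fitted were likewise without overlap was not counted. Lack of overlap, here and below, thus describes each gene alone. The means were 16.8 ± 12.6 RPKM in positive cells and 0.0918 ± 0.0824 RPKM in negative cells (SD, n = 3 each), a ratio of 182 that carries the uncertainty of so few reads in negative cells. On the scale of log2(RPKM + 0.1), positive cells were higher by 5.98 (SE 0.71). Without replicate 3 the difference was 7.08.

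*MAGEA6*, the closest relative of *MAGEA3*, was already present in negative CFPAC-1 cells. It measured 5.21, 4.78 and 3.07 RPKM in the positive samples, from 240, 158 and 54 reads. The negative samples measured 1.11, 0.831 and 0.797 RPKM, from 38, 32 and 28 reads. Every positive sample lay above every negative sample, with replicate 3 again the lowest of the positive samples. The means were 4.35 ± 1.13 and 0.912 ± 0.171 RPKM (SD, n = 3 each), a ratio of 4.77, and a difference of 2.12 (SE 0.24) in log2(RPKM + 0.1), or 2.34 without positive replicate 3.

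*MAGEA12*, another member of the same cluster, followed the same order at lower levels. The positive CFPAC-1 samples measured 2.75, 3.10 and 0.981 RPKM, from 140, 113 and 19 reads. The negative CFPAC-1 samples measured 0, 0.141 and 0.258 RPKM, from 0, 6 and 10 reads. These groups did not overlap either. The means were 2.28 ± 1.14 and 0.133 ± 0.129 RPKM (SD, n = 3 each), a ratio of 17.1 and a difference of 3.39 (SE 0.49) in log2(RPKM + 0.1), or 3.88 without positive replicate 3.

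*MAGEA1*, the first member of the family to be described as a tumour antigen, was seen in 2 samples, both GCTM-5 positive CFPAC-1. It measured 0.268 RPKM in replicate 1 and 0.249 RPKM in replicate 2, from 12 and 8 reads. It was at 0 in positive replicate 3, where a count of 0 allows up to 0.176 RPKM (3 reads), and in all 9 other samples. The positive and negative groups therefore overlapped at 0. The positive mean was 0.173 RPKM, near that limit, and no fold is given.

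The remaining 6 members were at or within a few reads of 0. *MAGEA11*, a reported coactivator of the androgen receptor, had 2 reads in each of 2 negative SW1990 samples and 2 reads in CFPAC-1 positive replicate 1. *MAGEA8* had 2 reads in SW1990 negative replicate 3, and *MAGEA2* had 1 read in CFPAC-1 positive replicate 1. *MAGEA4*, *MAGEA9* and *MAGEA10* had none in any sample. For *MAGEA4* and *MAGEA10* a count of 0 in the shallowest library allows up to 0.175 and 0.113 RPKM, and these floors, like all others here, cover counting error only. These genes were thus not detectable at this depth, which leaves room for levels near that of *MAGEA12* in negative CFPAC-1 cells.

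**Figure D2:**
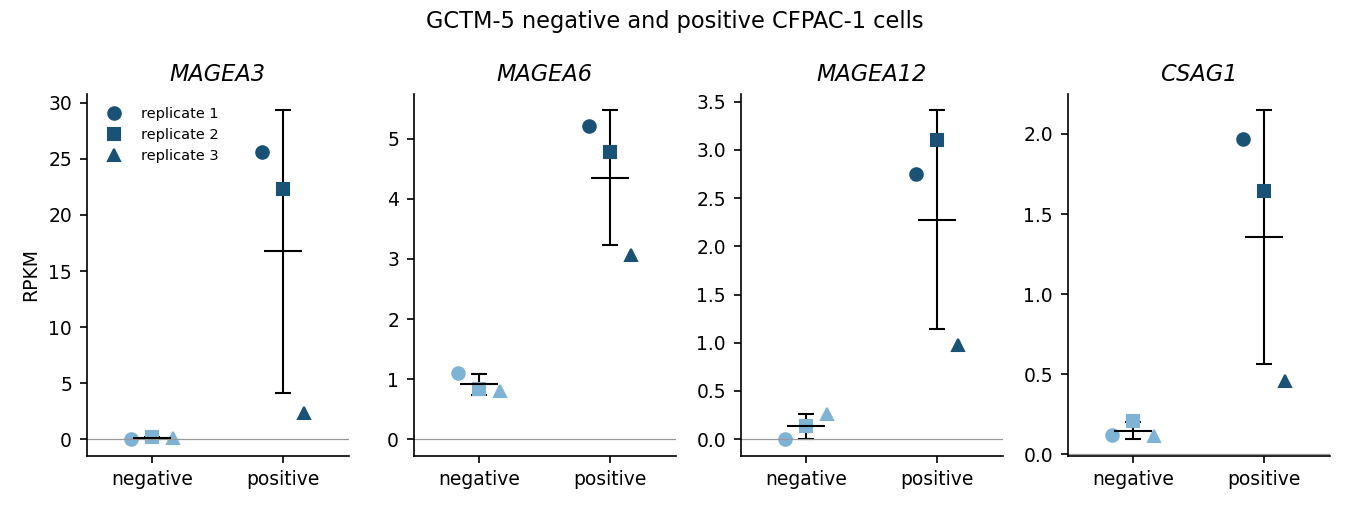
RPKM (vertical axis, a scale of its own in each panel) of *MAGEA3*, *MAGEA6*, *MAGEA12* and the neighbouring gene *CSAG1* in GCTM-5 negative and positive CFPAC-1 cells. Points are single samples, marked by replicate number, and bars are the mean and SD of 3 samples. For all 4 genes each positive sample lies above each negative sample, and positive replicate 3 is the lowest of its group.

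By the rule used for all genes (over 2-fold with an unadjusted p under 0.01, limma), 3 of the 3 members fitted were higher in positive CFPAC-1 cells, beside 5.65% of all genes fitted. As the family was chosen on these levels, and the 3 passed the filter through CFPAC-1 alone, that count is a description. In SW1990 there was too little of any of the 3 for a call in either direction, where 4.59% of all genes were called higher and 7.48% lower in positive cells. *MAGEA3* and *MAGEA6* had 0 reads in all 6 SW1990 samples. *MAGEA12* had 2 reads in SW1990 negative replicate 3, or 0.0582 RPKM, and 0 in the other 5 samples.

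The levels in CFPAC-1 set against those in SW1990 are also a description, since they chose the family. In positive cells all 3 members were called lower in SW1990, beside 13.7% of all genes fitted. The mean of positive CFPAC-1 cells was set against the level that 3 reads would give in each SW1990 library. It was at least 173-fold higher for *MAGEA3*, at least 45.9-fold for *MAGEA6* and at least 26.5-fold for *MAGEA12*. With a floor of 6 reads, these bounds are 86.5-fold, 23.0-fold and 13.3-fold. That floor would hold if mates were counted separately and was chosen after seeing the data. The bounds allow for low counts in SW1990 alone, and not for the spread between CFPAC-1 samples. In the same order of genes, the lowest positive CFPAC-1 sample was 22.7, 30.6 and 10.8 times the highest SW1990 floor of 3 reads. The difference in log2(RPKM + 0.1) between the lines for *MAGEA3* in positive cells was -6.81, or -7.91 without CFPAC-1 positive replicate 3. In negative cells 1 member, *MAGEA6*, was called lower in SW1990, beside 15.0% of all genes fitted. Its CFPAC-1 mean was at least 10.8-fold higher (5.42-fold with a floor of 6 reads). The lowest negative CFPAC-1 sample was 8.28 times the highest SW1990 floor of 3 reads. With a pseudocount of 1 the difference of *MAGEA6* between the lines was -0.93 in log2, under the 2-fold limit. *MAGEA3* in negative cells was at 0.0918 RPKM in CFPAC-1, close to the mean SW1990 floor of 0.0859 RPKM, so that a difference between the lines was not detectable at this depth. The change from negative to positive cells was smaller in SW1990 than in CFPAC-1 for all 3 members, and 17.8% of all genes fitted were called for a difference in that direction. For the members this follows from the levels that chose them.

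CFPAC-1 positive replicate 3 held less of each member than the other positive samples, and not by the same factor. The mean of replicates 1 and 2 was 10.3 times replicate 3 for *MAGEA3*, 2.98 times for *MAGEA12* and 1.62 times for *MAGEA6*. The order within the sample changed with it: *MAGEA3* was 4.92 and 4.67 times *MAGEA6* in replicates 1 and 2, and 0.757 times in replicate 3. This sample lay between the negative and the other positive samples in many genes. Over the 963 genes called higher in positive cells without it, replicate 3 lay a median of 80.6% of the way (quartiles 57.3% and 103%) from the negative mean to the mean of replicates 1 and 2, in log2(RPKM + 0.1). The members lay at 53.3% for *MAGEA3*, 61.8% for *MAGEA12* and 71.0% for *MAGEA6*, which are among these genes. Of the 963 genes, 21.1% lay lower than *MAGEA3*. The 963 genes were chosen on replicates 1 and 2 and the negative samples. A sample left out of that choice tends to lie short of the mean of replicates 1 and 2 for that reason alone. The same position was not computed with replicate 1 or 2 left out. Whether the median is particular to replicate 3 was therefore not tested. In sorted cells measured in bulk, fewer cells with the transcript and less of it in each cell cannot be told apart. The lower depth of this library and its lower MAGE-A levels go together, and the part of depth was not tested.

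*MAGEA3* and *MAGEA6* share much of their sequence, which bears on how reads were divided between them. Over 942 aligned coding bases they differed at 18, an identity of 98.1%, and the longest run without a difference was 308 bases. *MAGEA12* was 92.1% identical to *MAGEA3*, and *MAGEA10* 72.2%. The stretch of 80 coding bases with the most differences is shown because reads over it can tell *MAGEA3* from *MAGEA6*, with the 4 bases that differ in capitals. It covers coding bases 553 to 632 of both genes, on GRCh37 at chrX:151935535-151935614 (minus strand) for *MAGEA3* and chrX:151869863-151869942 (plus strand) for *MAGEA6*.
MAGEA3: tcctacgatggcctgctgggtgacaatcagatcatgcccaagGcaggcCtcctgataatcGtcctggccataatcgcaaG
MAGEA6: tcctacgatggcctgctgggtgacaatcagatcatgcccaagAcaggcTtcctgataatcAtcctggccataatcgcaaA
Counted from 1 at the start of the coding sequence, with the *MAGEA3* base first, the differences are G595A, C601T, G613A and G632A.

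To see how far a read could be placed, each run of 100 bases in the annotated exons was searched for in the whole genome. All such windows of *MAGEA1*, *MAGEA8*, *MAGEA10*, *MAGEA11* and *MAGEA12* occurred in 1 place, as did 91.6% of those of *MAGEA4*. The share was 64.4% for *MAGEA6* and 55.3% for *MAGEA3*. Of the *MAGEA3* windows, 27.8% were also in *MAGEA6*. For *MAGEA2* 5.77% of windows occurred in 1 place, and for *MAGEA9* none did, since *MAGEA2B* and *MAGEA9B* are near-identical copies; these copies were at 0 in every sample too. A value of 0 for *MAGEA2* or *MAGEA9* can therefore mean that reads were left out or given elsewhere, and the handling of reads with several matches is not given in the sources used here. The values of *MAGEA3* and *MAGEA6* are uncertain in the same way. With their RPKM values summed, positive CFPAC-1 cells were higher by 3.92 in log2(RPKM + 0.1). *MAGEA12*, whose windows all occurred in 1 place, showed the order of groups without that limit.

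**Figure D3:**
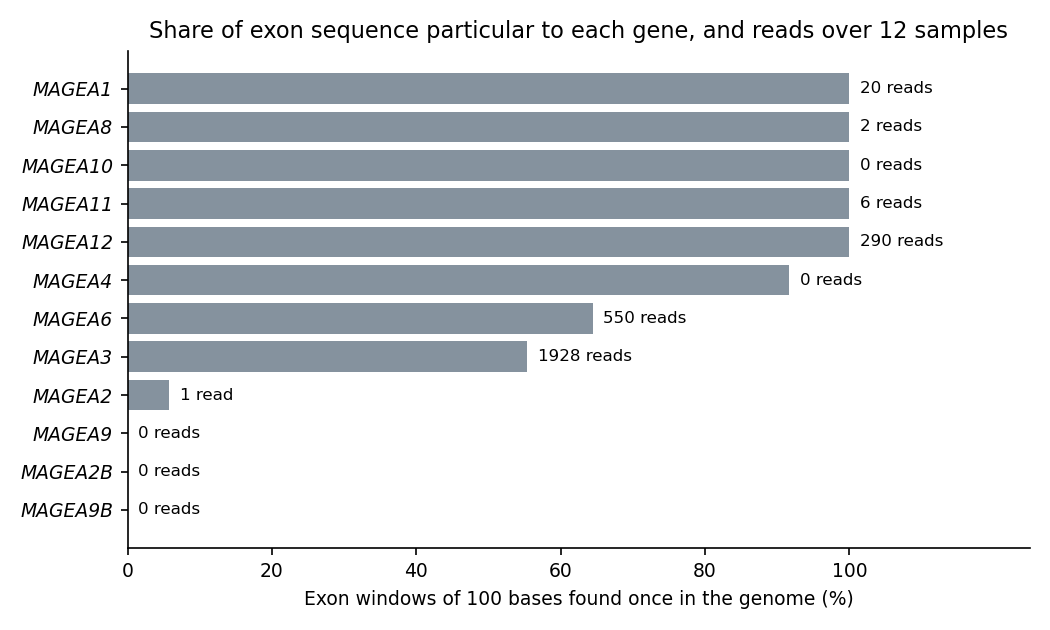
Share of 100-base exon windows that occur in 1 place in the genome (bars, percent) for the 10 members and the copies *MAGEA2B* and *MAGEA9B*, with the reads recovered for each gene over all 12 samples. *MAGEA12* has 290 reads at 100%, *MAGEA3* 1928 reads at 55.3%, and the genes at or below 5.77% have at most 1 read.

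The 3 members lie in 1 cluster. On GRCh37, *MAGEA6* is at chrX:151867214-151870825 on the plus strand, *MAGEA12* at chrX:151899293-151903206 on the minus strand and *MAGEA3* at chrX:151934652-151938240 on the minus strand, and the starts of *MAGEA6* and *MAGEA3* are 71026 bases apart. *MAGEA2* and *MAGEA2B* lie between them. *MAGEA1* is at chrX:152481520-152486116 on the minus strand, outside the cluster.

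*CSAG1*, a cancer-testis gene that starts 22 bases from the start of *MAGEA12* on the other strand, followed the same order. It measured 1.97, 1.64 and 0.459 RPKM in positive CFPAC-1 samples, from 45, 27 and 4 reads, and 0.117, 0.209 and 0.115 RPKM in negative CFPAC-1 samples, from 2, 4 and 2 reads. The groups did not overlap, and *CSAG1* rose by 2.37 (SE 0.57) in log2(RPKM + 0.1), with an adjusted p of 0.00715 (limma, Benjamini-Hochberg). Without positive replicate 3 the difference was 2.96. The call rests on few reads and was lost with a pseudocount of 1 (a difference of 0.97). With a pseudocount of 0.01 it was lost as the unadjusted p was not under 0.01 (a difference of 2.93, adjusted p of 0.0935, limma). In SW1990 *CSAG1* had at most 4 reads in any sample and its difference was -0.53 (SE 0.57). All 659 of its exon windows occurred in 1 place. The other CSAG genes of the cluster, *CSAG2* and *CSAG3*, were at 0 in every sample, and none of their windows occurred in 1 place.

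**Figure D4:**
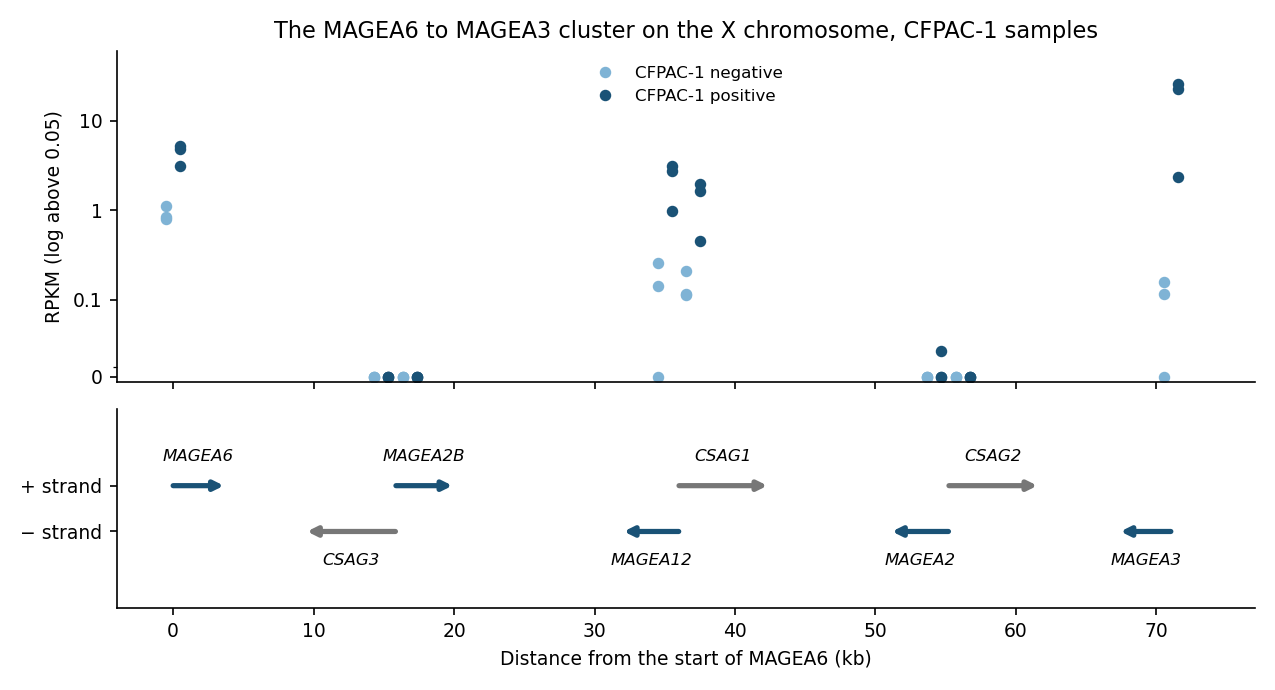
The cluster from *MAGEA6* to *MAGEA3*: RPKM in CFPAC-1 samples (upper panel, log scale above 0.05, points set slightly apart at each gene's start) and the genes with their strand (lower panel, arrows, MAGE-A in blue and CSAG in grey) against the distance from the start of *MAGEA6* in kb. *MAGEA6*, *MAGEA12*, *CSAG1* and *MAGEA3* have higher points in positive cells, and the genes between them, which have near-identical copies, are at or near 0.

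Of the 17 listed genes that start within 200 kb of a member and are not MAGE-A genes, 9 were fitted and 6 were at 0 in every sample. In CFPAC-1 3 of the 9 were called: *CSAG1* rose, beside 5.65% of all genes, and *GABRE* and *MIR452* fell, beside 4.13%. *GABRE*, a GABA receptor subunit gene 62185 bases from the start of *MAGEA4*, measured 21.8, 15.0 and 16.3 RPKM in negative CFPAC-1 samples and 7.39, 5.32 and 9.99 RPKM in positive samples. It fell by 1.24 (SE 0.30) in CFPAC-1, with an adjusted p of 0.00793, and by 1.42 (SE 0.30) in SW1990, with an adjusted p of 0.00394 (limma). *MIR452*, a microRNA gene inside *GABRE*, was called lower in both lines from at most 6 reads in any sample, and the SW1990 call was lost when any of 10 of the 12 samples was left out (differences of -2.75 to -1.32). In CFPAC-1 its call rests on 3, 1 and 2 reads against 0. It was lost with voom, where the unadjusted p was not under 0.01 (a difference of -1.99, adjusted p of 0.0612). The genes next to the cluster on the side of *MAGEA3*, *CETN2*, *NSDHL* and *ZNF185*, did not pass the rule in either line.

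The promoters of the family were compared because *MAGEA3*, *MAGEA6* and *MAGEA12* differed in the same direction. In the 200 bases before the annotated start, all 12 MAGE-A promoters with an annotated start held GGATGTGA on the strand of the gene. This motif was picked after reading these promoters, so its presence in them is no test. It was found on that strand in 0.348% of 20137 other protein-coding promoters of the same length, and on either strand in 0.591%. It holds GGAT, a core that ETS factors can bind. Shown in capitals with 18 bases before and 4 after, from GRCh37 and the GENCODE 44 annotation, are the members with more than 3 reads in a positive CFPAC-1 sample and, for contrast, *MAGEA4* and *MAGEA10*, which had none.
MAGEA3 (chrX:151938273-151938302, minus strand): agggtagtaccgttgccaGGATGTGAcgcc
MAGEA6 (chrX:151867168-151867197, plus strand): agggtagtaccgttgccaGGATGTGAcgcc
MAGEA12 (chrX:151903207-151903236, minus strand): cagggaagtcacggggccGGATGTGAcgcc
MAGEA1 (chrX:152486139-152486168, minus strand): ggaaacatccgggtgcccGGATGTGAcgcc
MAGEA4 (chrX:151081309-151081338, plus strand): ggaaagccccagctgcccGGATGTGAtgcc
MAGEA10 (chrX:151307051-151307080, minus strand): agggaagccccggggaccGGATGTGAcgcc
The stretches of *MAGEA3* and *MAGEA6* were the same in all 30 bases. The motif was present in members with and without reads, and so did not separate them. CG dinucleotides, the sites of DNA methylation, numbered 16 in the 200 bases before *MAGEA3*, 7 before *MAGEA6* and 4 before *MAGEA12*, against a median of 15 in the other promoters. The motif starts at -113, -28 and -12 from the annotated starts of *MAGEA3*, *MAGEA6* and *MAGEA12*. Their windows of 200 bases therefore do not cover matching sequence, and these counts do not compare like stretches. No methylation was measured here.

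Genes whose pattern was most like each member were found by the root mean square difference of centred log2(RPKM + 0.1) over the 12 samples. For *MAGEA3* they were *FAM133A* (0.81), *TMPRSS11E* (1.01) and *GPR141* (1.11). *FAM133A*, also on the X chromosome, measured 8.91, 7.53 and 1.17 RPKM in positive CFPAC-1 samples, at most 0.211 RPKM in negative ones and 0 in SW1990, so it too was lowest in replicate 3 of the positive samples. For *MAGEA6* they were *EPHX3*, *ZNF257* and *UPK1B* (0.40 each), and for *MAGEA12* *FAM70A* (0.61), *TMPRSS11E* (0.62) and *PTHLH* (0.63). No chromosome was obtained for *FAM70A* under that symbol. The other members were too low for this search. No other MAGE-A gene was among the genes most like these members. These values describe likeness alone, and the 12 samples share their groups.

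Most other X-linked germline genes were too low to be compared between the sorted cells. Of 11 other type I MAGE genes listed (the MAGEB and MAGEC families, also germline genes of the X chromosome), 7 were at 0 in every sample and 1 was fitted. That gene, *MAGEB6*, named after its values were seen, reached 0.300 RPKM in SW1990 and was at 0 in all 6 CFPAC-1 samples. Of 53 other X-linked cancer-testis genes listed, 43 were at 0 in every sample and the 1 fitted was *CSAG1*, which rose in CFPAC-1 as given above. Of 42 of these zero genes that could be searched, 18 had under 10% of windows in 1 place and 15 over 90%, so the zeros of the latter do not rest on shared sequence.

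Of the type II MAGE genes, many of which are widely expressed, 1 passed the rule in SW1990, where it fell, and none passed it in CFPAC-1. In each line the difference was below 0 for 4 of the 5 fitted and above 0 for 1. Of 11 listed, 5 were fitted and 6 were at 0 in every sample, of which 2, *MAGED4* and *MAGED4B*, have no exon window that occurs in 1 place. *MAGED2*, which binds the stimulatory G protein in the kidney, measured 34.7, 42.3 and 45.6 RPKM in negative and 16.3, 25.1 and 19.7 RPKM in positive SW1990 samples. It fell by 1.01 (SE 0.17) there, with an adjusted p of 0.000717 (limma), beside 7.48% of all genes called lower. This change was at the edge of the 2-fold limit, and was under it with median centring (-0.97), with a pseudocount of 1 (-0.98), and without SW1990 negative replicate 2 (-0.98), negative replicate 3 (-0.93) or positive replicate 1 (-0.87). In CFPAC-1 4 of the 5 had an unadjusted p under 0.05 (limma) and voom called none. *MAGED2* in CFPAC-1 differed by -0.81 (SE 0.17), with an adjusted p of 0.00322 (limma), under the 2-fold limit. Its change was not called different between the lines (-0.20, adjusted p of 0.57, limma). *MAGED1*, an adaptor in neurotrophin signalling, differed by -0.74 (SE 0.13) in CFPAC-1 and by -0.58 (SE 0.13) in SW1990. The median over the 5 was -0.26 in SW1990, beside -0.04 over all genes fitted, and -0.73 in CFPAC-1, beside 0.05. *MAGEH1* measured 31.2 ± 2.98 RPKM in negative and 18.9 ± 2.67 RPKM in positive CFPAC-1 cells (SD, n = 3 each) and had at most 0.0666 RPKM in SW1990.

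Autosomal cancer-testis genes moved in both directions. Of 35 listed, 15 were fitted. In CFPAC-1 2 rose and 2 fell, beside 5.65% of all genes called higher and 4.13% called lower. In SW1990 1 rose and 1 fell, beside 4.59% and 7.48%. *PRAME*, a tumour antigen that represses retinoic acid signalling, went against the MAGE-A genes: it measured 1.31, 1.17 and 1.47 RPKM in negative and 0.261, 0.236 and 0.342 RPKM in positive CFPAC-1 samples. It fell by 1.91 (SE 0.14) in CFPAC-1 (0.86 with a pseudocount of 1, under the 2-fold limit), with an adjusted p of 1.09e-05, and by 1.23 (SE 0.14) in SW1990, from 21.5 ± 0.338 to 9.10 ± 0.474 RPKM (SD, n = 3), with an adjusted p of 4.44e-05 (limma). *CEP55*, a protein of the final cut between daughter cells, rose in CFPAC-1 by 1.198 (SE 0.113), and *CABYR*, a calcium-binding sperm tail protein, by 1.35 (SE 0.25), or 0.93 with a pseudocount of 1. *LEMD1* fell in CFPAC-1 by 2.80 (SE 0.59). *ZNF165* rose in SW1990 by 2.80 (SE 0.21), from 1.53 ± 0.395 to 11.1 ± 1.75 RPKM (SD, n = 3).

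**Figure D5:**
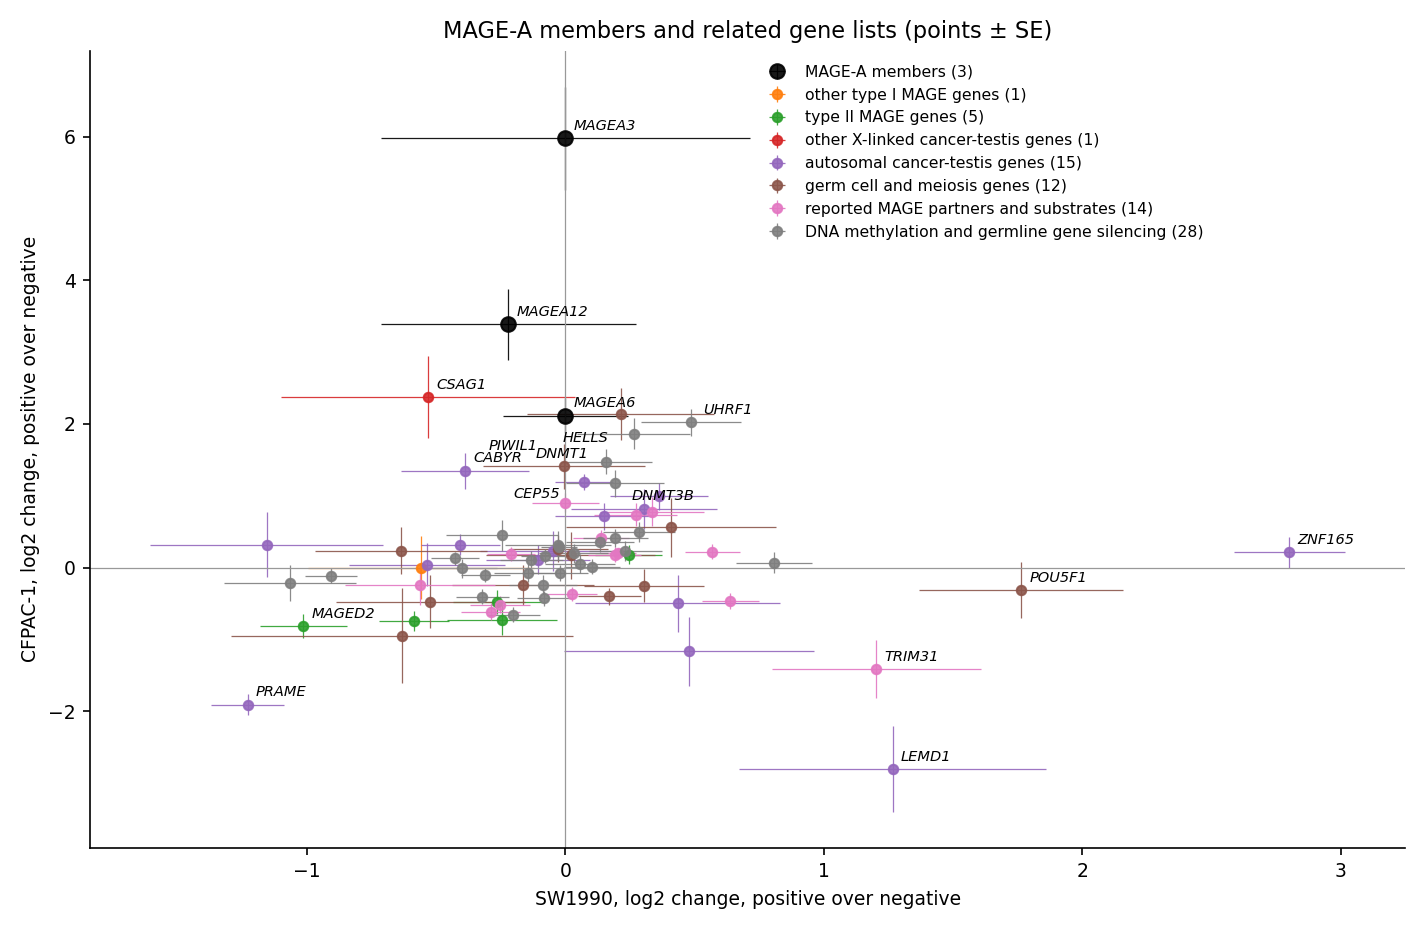
Difference between GCTM-5 positive and negative cells in log2(RPKM + 0.1), SW1990 (horizontal) against CFPAC-1 (vertical), for the fitted MAGE-A members and the fitted genes of each related list (colours, number of genes in brackets), with SE bars. *MAGEA3*, *MAGEA12* and *MAGEA6* stand at 5.98, 3.39 and 2.12 in CFPAC-1 and at or near 0 in SW1990, and *PRAME* is below 0 in both lines.

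Of 26 germ cell and meiosis genes listed, 12 were fitted. In CFPAC-1 2 rose, beside 5.65% of all genes, and in SW1990 1 rose, beside 4.59%. *PIWIL1*, which binds small RNAs that silence transposons in the germline, measured 0.732, 0.878 and 1.10 RPKM in negative and 2.79, 2.04 and 2.86 RPKM in positive CFPAC-1 samples. It rose by 1.41 (SE 0.31), with an adjusted p of 0.0047 (limma), and positive replicate 3 was not lower than the others. With a pseudocount of 1 the difference was 0.90, under the 2-fold limit. *DMC1*, the meiotic recombinase, rose by 2.14 (SE 0.36), from 0.0785 ± 0.0301 to 0.702 ± 0.225 RPKM (SD, n = 3), and is named here after its values were seen, its overall mean being under 1 RPKM. In SW1990 *POU5F1*, the pluripotency factor, rose by 1.76 (SE 0.39), from 0.348 ± 0.225 to 1.27 ± 0.199 RPKM (SD, n = 3). That call was lost with a pseudocount of 1 (0.76). It was also lost in the fit of the compared groups alone, where the difference was still 1.76 but the unadjusted p was not under 0.01 (adjusted p of 0.0412, limma). Some of its exon windows, which occurred in 1 place for 89.6%, are shared with other loci. The median over the 12 genes was -0.04 in CFPAC-1 and 0.01 in SW1990.

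The reported partners and substrates of MAGE proteins were present in both lines. All 15 were listed and 14 fitted. In CFPAC-1 1 fell, beside 4.13% of all genes: *TRIM31*, a RING ligase that type I MAGE proteins bind, from 49.8 ± 5.08 to 18.7 ± 2.61 RPKM (SD, n = 3), by 1.41 (SE 0.40), with an adjusted p of 0.0174 (limma). The call was lost without CFPAC-1 negative replicate 2 or 3 or positive replicate 1 or 3, with differences of -1.443 to -1.298. In SW1990 none passed the rule, 6 had an unadjusted p under 0.05 (limma), and voom called none. *TRIM28*, the ligase that MAGE-A3 and MAGE-A6 bind, is given for that role and did not pass the rule: it measured 35.3 to 37.5 RPKM in negative and 56.1, 47.0 and 93.6 RPKM in positive CFPAC-1 samples, and differed by 0.78 (SE 0.20). The highest of these values was that of positive replicate 3, which is 1 library. Other genes, among them *KRT8* and *MAGEF1*, were also highest in that sample. A relation to the MAGE-A levels was not tested.

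Genes of DNA methylation and germline gene silencing included 4 that rose in CFPAC-1 and 1 that fell in SW1990, of 28 fitted, beside 5.65% of all genes called higher in CFPAC-1 and 7.48% called lower in SW1990. Those that rose were *DNMT1*, the maintenance methyltransferase, by 1.47 (SE 0.18), *UHRF1*, which brings it to newly copied DNA, by 2.02 (SE 0.19), *HELLS*, a remodeller needed for methylation, by 1.87 (SE 0.22), and *DNMT3B*, a de novo methyltransferase, by 1.17 (SE 0.19), or 0.83 with a pseudocount of 1. *DNMT1* measured 3.46, 3.17 and 3.60 RPKM in negative and 10.2, 7.80 and 11.3 RPKM in positive CFPAC-1 samples, with no overlap, and an adjusted p of 0.00012 (limma). Positive CFPAC-1 cells thus held more MAGE-A transcript and more transcript of these methylation genes. Of the exon windows of *UHRF1*, 67.9% occurred in 1 place, so its values carry the uncertainty of shared sequence. All windows of *DNMT1*, *HELLS* and *DNMT3B* occurred in 1 place. *UHRF1* and *DNMT1* are also made more in cycling cells, and the part of the cell cycle in these differences was not tested. *TET1*, which oxidises methylated cytosine, fell in SW1990 by 1.07 (SE 0.25), at levels under 1 RPKM in every sample, and is named after its values were seen. Over the 28 genes the median was 0.12 in CFPAC-1 and -0.03 in SW1990.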

How the data were processed

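Poly(A) RNA of 12 sorted samples was sequenced. The deposited values are RPKM, which the authors computed with QuasR after alignment to hg19 (GRCh37). Which annotation was counted, whether strand was used, what was done with reads of several matches, and the QuasR version are not given in the sources used here. The library kit is SureSelect (strand-specific) in the labels and TruSeq in the paper. The members and gene lists were chosen with earlier results of these data known. No column lacked a sample.

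Library totals (9969697 to 26159330 reads) and gene lengths were recovered as those that turned RPKM into whole reads, to within 0.002 of a read, in 19651 of 19654 genes above 0. A gene seen in at most 6 samples needed a length of at least 80% of its shortest annotated transcript, and its reads may be off by a common factor. Log2(RPKM + 0.1) was fitted for 16236 genes, those whose mean RPKM reached 0.1, with limma 3.58.1 in R 4.3.3 (eBayes with trend, 4 group means, Benjamini-Hochberg adjustment). The fit and the recovery were checked on simulated data. In limma each SE pools the spread of all 4 groups, also for genes at 0 in SW1990. The authors' own tool, TCC, was not run. Calls were made at over 2-fold and an unadjusted p under 0.01, and for the difference between lines at an adjusted p under 0.05. With 3 samples a group, an exact permutation test cannot go below 0.1.

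Genes named were the 10 members and other genes whose symbol starts with MAGEA, called genes that start within 200 kb of a member, up to 3 called genes with the largest difference per list and comparison with a mean of at least 1 RPKM, and the 3 genes most like each member. Of these the text prints those of the comparison of positive with negative cells. Exon windows, coding sequences and promoters were read from GRCh37 with GENCODE 44 mapped to it, and floors are 3 reads per library. Alternatives were other pseudocounts, filters, normalizations and models, a replicate block, summed paralogs, and each sample left out.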

Additional observations from a re-analysis of the deposited data

Results flagged for a closer look

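Of the related lists, 24 genes changed differently from negative to positive cells in the 2 lines, by the interaction term of limma (adjusted p under 0.05). Over all genes fitted 26.9% did so. The number was 9 of 28 fitted for DNA methylation and germline gene silencing and 6 of 15 for autosomal cancer-testis genes. It was 4 of 12 for germ cell and meiosis genes and 4 of 14 for partners and substrates. It was 1 of 1 for other X-linked cancer-testis genes, 0 of 5 for type II and 0 of 1 for other type I MAGE genes. Of the 24, the 13 that were also called within a line, at a mean of at least 1 RPKM or beside a member, are given here. Each value is the change in SW1990 minus the change in CFPAC-1, in log2(RPKM + 0.1). It was below 0 for *CSAG1* (-2.91, adjusted p 0.0194), *CABYR* (-1.74, 0.00346), *HELLS* (-1.60, 0.00259), *UHRF1* (-1.53, 0.00158), *PIWIL1* (-1.42, 0.0336), *DNMT1* (-1.32, 0.00235), *CEP55* (-1.13, 0.000384) and *DNMT3B* (-0.98, 0.019). It was above 0 for *LEMD1* (4.07, 0.00396), *TRIM31* (2.61, 0.00551), *ZNF165* (2.59, 0.00011), *POU5F1* (2.07, 0.0171) and *PRAME* (0.68, 0.0262), the last of which fell in both lines. Each of these genes has 3 samples in each group. *MAGEA5*, a MAGE-A row of the table outside the 10 members, had 6 reads in CFPAC-1 negative replicate 1, above the limit of 3 that a count of 0 allows, with 3 in negative replicate 3 and 2 in positive replicate 1, at or under it. These run the other way from *MAGEA3*, and the difference was not tested. The readthrough row *MAGEA10-MAGEA5*, which covers it, had 3, 2 and 1 reads in the same samples.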

How the results depend on the processing

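Over 11 alternatives and 12 samples left out in turn, 225 of 230 counts of genes or members called stayed within 1.5 times the value given. With a pseudocount of 1, the genes called numbered 1101 instead of 1961 for SW1990 positive against negative cells, 759 instead of 1588 for CFPAC-1, and 2965 instead of 4627 for positive cells between the lines, and 0 members instead of 1 were called for negative cells between the lines, where *MAGEA6* differed by -0.93. With voom on recovered reads, 1 member instead of 3 was called for the difference between lines, *MAGEA12*, and the cause was not tested. The difference of *MAGEA3* in CFPAC-1 ranged from 3.55 (pseudocount of 1) to 7.65 (voom). That of *MAGEA6* ranged from 1.47 to 3.92 (summed with *MAGEA3*) and that of *MAGEA12* from 1.47 to 4.80. Leaving out samples gave 5.38 to 7.08, 1.97 to 2.34 and 2.87 to 3.88. A change of sign was looked for only in member differences called in the main fit, and 0 of these values changed sign. All 3 members were called higher in CFPAC-1 with each sample left out. Without a filter *MAGEA1* was called too, 4 members in all, and 2 were left at a mean of at least 1 RPKM, a filter that *MAGEA12* did not pass. Of 436 values of other named genes, 35 fell below the rule and kept their sign, 17 of them for *MIR452*. Same-numbered samples did not deviate together in CFPAC-1 (correlations of -0.02, 0.0013 and -0.06) and did so weakly in SW1990 (0.18, 0.016 and 0.12), so the numbers were not taken as pairs. With a replicate block the genes called numbered 1969 in SW1990 and 1610 in CFPAC-1, with the same 0 and 3 members called.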
